A study of Mus musculus with 14 samples.

Results

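Mast cells and basophils are the tissue and blood granulocytes that carry the high-affinity IgE receptor on their surface. This receptor is built from an IgE-binding alpha chain (Fcer1a), a signal-amplifying beta chain (Ms4a2) and a shared gamma chain (Fcer1g), and its crosslinking by antigen releases histamine, lipid mediators, proteases and cytokines. Mouse basophils store the proteases Mcpt8 and Prss34, mouse connective tissue mast cells store the chymases Cma1 and Mcpt4 together with tryptases, and both lineages depend on the transcription factor Gata2 and use the carboxypeptidase Cpa3, which is also transcribed in some of their bone marrow progenitors. The cells described here were chosen from single-cell RNA libraries of white nodules by measured transcripts: a cell was a member if at most 10% of its UMIs (unique molecular identifiers, which count captured RNA molecules) were mitochondrial, if at least 2 of the 5 genes Cpa3, Mcpt8, Ms4a2, Fcer1a and Prss34 had a UMI, and if Cd3d, Cd3e, Cd3g, Cd79a, Cd79b and Ms4a1 had none. Of 75548 cells that passed the mitochondrial limit, out of 77442 deposited, 220 met the rule, or 0.291%.

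The nodules came from Eif3e fl/fl mice with Cγ1-Cre and a Rosa26-YFP reporter on the C57BL/6J background (cKO mice). Cre from the Cγ1 locus acts where the IgG1 constant region is transcribed, which is in activated B cells. The cells described here are thus not a known site of deletion. No library of healthy tissue was included. The only library that could hold cells from outside the cKO line was that of mouse 27, whose nodule was a transplant, as given below. The antigen receptor library made beside the RNA was for the B cell receptor in 5 mice and for the T cell receptor in 2, and these are called BCR mice and TCR mice. Among the BCR mice the label of mouse 27, aged 12 months, gives the liver. The nodule lay in the lung of mouse 29 at 12 months and in the spleen of mouse 31 at 13 months. It lay in the thymus of mouse 33 at 16 months, and in both lung and thymus of mouse 34 at 9 months. In the TCR mice it lay in the liver (mouse 30, aged 14 months) or the spleen (mouse 32, aged 12 months). The sequenced nodule of mouse 27 had grown after transplantation into a Rag2-/- recipient, which keeps its own mast cells, basophils and other myeloid cells. By the study's methods recipients were younger than 12 months, so the age given for mouse 27 is not that of these host cells. Each mouse gave 1 RNA library of 19264039 to 123456962 UMIs, with a median of 1364 to 5316 UMIs per cell.

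Nearly all cells meeting the rule came from the TCR mice. Mouse 32 held 203 of them among 13369 cells, a share of 1.52% (95% exact binomial interval 1.32 to 1.74), and mouse 30 held 15 among 10485, a share of 0.143% (0.0801 to 0.236). Mouse 27 and mouse 29 held 1 each, at 0.0106% (0.000269 to 0.0593) and 0.0071% (0.00018 to 0.0396). Mice 31, 33 and 34 held none, and a count of 0 there allows shares of up to 0.0264%, 0.030% and 0.0437%. These intervals and limits cover counting error only. The 2 groups did not overlap, with a mean share of 0.831% ± 0.973 (SD, n = 2) in the TCR mice and 0.00355% ± 0.00502 (SD, n = 5) in the BCR mice. The exact two-sided permutation test over the 21 splits of the mice gave p = 0.0952, which is the smallest value this design allows, so the difference could not pass a threshold of 0.05. Without mouse 32 the difference of the means was 0.14 percentage points in place of 0.827. In the spleen, the only site with a primary nodule from each group, the counts were 203 in the TCR mouse and 0 in the BCR mouse, a comparison of single nodules. The liver nodule of mouse 27 is no match for that of mouse 30, since it was a transplant grown in a recipient whose own mast cells and basophils it would hold. A share of cells cannot tell more mast cells and basophils from fewer cells of other kinds or from a different yield at dissociation.

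**Figure D1:**
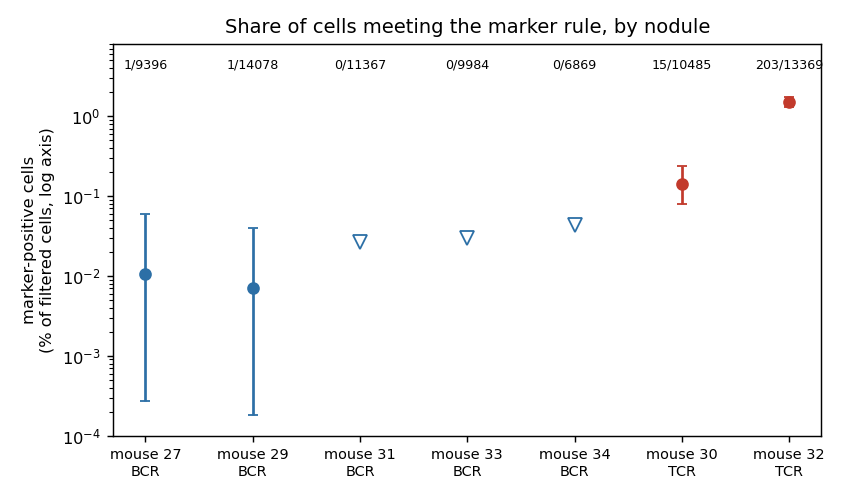
Share of filtered cells that met the marker rule in each of the 7 nodules, in percent on a log axis. Circles are shares with 95% exact binomial intervals, open triangles are the upper limits that a count of 0 allows, blue is BCR mice and red is TCR mice, and the numbers at the top are members over filtered cells. Mouse 32 lies at 1.52%, mouse 30 at 0.143%, and the BCR mice hold at most 1 cell each.

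The 5 genes, which also chose the members, were nearly silent in whole libraries of the BCR mice. Gata2, a marker that the rule did not use, did not separate the groups in this way. It had 5, 92, 45, 15 and 33 UMIs in mice 27, 29, 31, 33 and 34. Mouse 30 held 83 and mouse 32 held 6510. All filtered cells of mouse 34 together held 1 UMI of Cpa3, 1 of Ms4a2 and none of Mcpt8, Fcer1a or Prss34. Prss34 had no UMI in any of the 5 BCR mice. Mouse 27 held 57 UMIs of Fcer1a and mouse 31 held 15, none of them in a member. In mouse 30 and mouse 32 the libraries held 706 and 1023 UMIs of Mcpt8, 386 and 1627 of Prss34, and 96 and 2620 of Cpa3. The lone member of mouse 27 (1507 UMIs) held 13 UMIs of Il4, 11 of Hdc, 8 of Ccl3 and 7 of Ccl4. The lone member of mouse 29 (1293 UMIs) held 39 of Ccl4, 25 of Ccl3, 3 of Cyp11a1, 2 of Il6 and 1 of Cd200r3. Both thus carried chemokine transcripts in addition to the genes that chose them, and neither held a UMI of Kit. Ighe, the IgE heavy chain transcript, had no UMI in any member, against 18529 UMIs in the library of mouse 27 and 13793 in that of mouse 31.

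The upstream regions of the genes that define the cells are shown because Gata2 was among the marker genes and binds GATA letters. RefSeq entries (GRCm38.p6) were found for 5 of 5 genes, and the 250 bases before each annotated start are given 5′ to 3′ on the gene's strand, with every AGATAA or TGATAA, on either strand (so also TTATCT and TTATCA), in capitals. These are chr3:20242182-20242431 (minus strand, Cpa3), chr19:11623720-11623969 (minus, Ms4a2), chr1:173227230-173227479 (minus, Fcer1a), chr17:25298144-25298393 (plus, Prss34) and chr14:56085198-56085447 (minus, Mcpt8).
Cpa3: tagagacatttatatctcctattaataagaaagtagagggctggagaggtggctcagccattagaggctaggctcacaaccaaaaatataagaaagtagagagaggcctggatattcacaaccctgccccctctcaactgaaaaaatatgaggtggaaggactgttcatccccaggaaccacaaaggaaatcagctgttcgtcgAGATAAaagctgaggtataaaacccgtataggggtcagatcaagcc
Ms4a2: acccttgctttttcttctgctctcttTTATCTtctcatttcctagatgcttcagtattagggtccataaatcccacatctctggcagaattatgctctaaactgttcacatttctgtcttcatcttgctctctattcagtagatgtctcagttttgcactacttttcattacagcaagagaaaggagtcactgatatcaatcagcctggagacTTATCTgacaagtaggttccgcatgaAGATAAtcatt
Fcer1a: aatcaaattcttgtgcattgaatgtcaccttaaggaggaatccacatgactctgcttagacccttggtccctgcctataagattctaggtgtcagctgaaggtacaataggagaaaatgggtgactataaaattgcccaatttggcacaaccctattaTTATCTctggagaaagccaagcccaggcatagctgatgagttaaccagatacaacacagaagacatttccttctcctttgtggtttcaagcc
Prss34: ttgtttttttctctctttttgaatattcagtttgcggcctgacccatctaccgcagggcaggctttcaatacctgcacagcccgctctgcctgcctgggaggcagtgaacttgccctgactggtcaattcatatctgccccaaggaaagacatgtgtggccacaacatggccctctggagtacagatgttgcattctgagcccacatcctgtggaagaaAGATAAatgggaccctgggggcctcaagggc
Mcpt8: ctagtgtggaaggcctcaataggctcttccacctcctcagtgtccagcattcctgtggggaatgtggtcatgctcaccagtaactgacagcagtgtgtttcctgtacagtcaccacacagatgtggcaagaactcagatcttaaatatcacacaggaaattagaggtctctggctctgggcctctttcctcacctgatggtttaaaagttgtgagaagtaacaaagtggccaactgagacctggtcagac
The letters occurred 1 time before Cpa3, beginning 46 bases ahead of the start, 3 times before Ms4a2 (224, 37 and 11 bases), 1 time before Fcer1a (92 bases) and 1 time before Prss34 (31 bases), and they did not occur in this window before Mcpt8. Of 27025 mouse promoters of the same length, 17% held at least 1 such match and 2.9% held 2 or more. A match is a stretch of letters and no measurement of binding.

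In mouse 32 the rule was met mostly by deep cells, while mouse 30 held few cells of that depth. Members of mouse 32 had a median of 23070 UMIs, against 4244 for its library, whereas members of mouse 30 had 2473 against 1364. Among cells of mouse 32 with under 2000 UMIs 0.2% met the rule, and among those with 40000 or more 9.07% did (95% exact binomial interval 6.43 to 12.3). In mouse 30 the share was 0.0507% (0.0138 to 0.13) under 2000 UMIs and highest, at 0.466% (0.224 to 0.856), in cells of 2000 to 5000 UMIs. None of its 100 cells of 10000 to 20000 UMIs met the rule, with an exact binomial upper limit of 3.62%. After each cell was thinned to 1000 UMIs, with shallower cells left out, 28 of 12830 cells met the rule in mouse 32 (0.218%) and 8 of 7412 in mouse 30 (0.108%), against 1.52% and 0.143% at full depth. T cells, chosen by Cd3d, Cd3e and Cd3g, gave a measure of how often the 5 genes appear in cells chosen by other transcripts. They are no clean background, since some held many UMIs of Mcpt8 or Prss34, as given in the closing section. Whether deep T cell droplets held more than 1 cell was not tested. With 20000 UMIs or more, 12 of 165 T cells of mouse 32 (7.27%, 3.81 to 12.4) had at least 2 of the 5 genes, against 7.4% (6.24 to 8.71) of the other cells of that depth, and the 2 shares did not differ beyond their counting intervals. Of those 12 T cells, 11 also held Kit and 8 held at least 10 UMIs of Car1. Kit was found in 58.2% of all 165 T cells of that depth and in 73.1% of the other cells. Between 5000 and 20000 UMIs the shares were 0.323% (0.105 to 0.752) and 3.75% (3.02 to 4.61), and under 5000 UMIs they were 0 of 3293 T cells and 0.26% of the others.

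**Figure D2:**
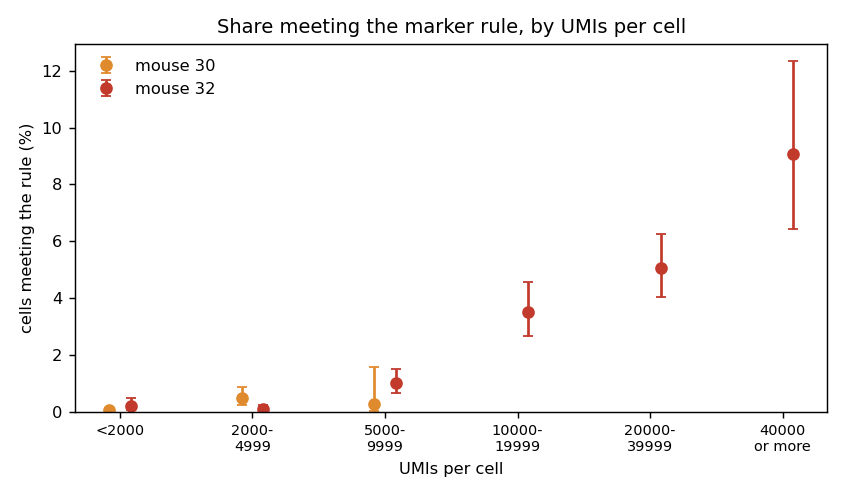
Share of filtered cells meeting the marker rule (percent) by UMIs per cell, in mouse 30 (orange) and mouse 32 (red), for bins of at least 200 cells. Circles are shares and bars are 95% exact binomial intervals. In mouse 32 the share goes from 0.2% in the shallowest bin to 9.07% in the deepest, and in mouse 30 it stays at or under 0.466%.

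The members of mouse 32 were also mostly at the edge of the rule. Exactly 2 of the 5 genes were present in 152 of the 203 cells, and 34 of these held only 2 UMIs of the 5 genes in all. Just outside the rule stood 582 cells of mouse 32 and 36 of mouse 30 with 1 of the 5 genes. Cpa3 with Ms4a2 alone was the most frequent combination in mouse 32, in 86 cells, followed by Ms4a2 with Fcer1a alone, in 35, and all 5 genes together were found in 11. In mouse 30, 9 of 15 cells had 3 or more of the genes and 2 had all 5. Cells with 2 or more of the genes that were dropped for a T or B cell transcript numbered 46 in mouse 32 and 3 in mouse 30. A V(D)J call was attached to 1 member, in mouse 32. Every pair of libraries shared 96 to 286 cell barcodes, and 19 of the 220 members had a barcode seen in another library as well, but no barcode was a member in both.

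The 15 cells of mouse 30 shared a set of transcripts, read from genes chosen with earlier results of these data known. Beyond the genes that chose them, all 15 held at least 3 of Cyp11a1, Hdc, Ccl3, Ccl4, Il6 and Il4, and 14 held Cd200r3, an activating receptor of basophils and mast cells. Levels are given below as CPM, the UMIs of a gene per 1000000 UMIs summed over the cells of a group, with an exact Poisson interval (95%) that covers counting error only, since these are the cells of single nodules. No length correction was made, so levels are compared between groups of cells and not between genes.

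Hdc makes histamine from histidine, and the cells of mouse 30 held 0, 18 and 79 UMIs of it as the lowest, median and highest value per cell. Its summed level was 9623 CPM (8715 to 10600), against 13.3 CPM in T cells of the nodule. Hdc is also transcribed by neutrophils, and 52.3% of the neutrophils of mouse 30 held it, at 16 UMIs at most. Ccl3 and Ccl4, chemokines that attract leukocytes, reached 15805 CPM (14635 to 17043) and 33225 CPM (31518 to 35000), with a median of 25 and 45 UMIs per cell. Only 1 of the 15 cells had no Ccl4 and none lacked Ccl3. Il6 stood at 4215 CPM (3621 to 4877) in 13 cells. Il4, the cytokine of type 2 responses and of class switching to IgE, stood at 3138 CPM (2629 to 3716) in 10 cells and at 193 CPM in T cells of the nodule. A single cell held 55 of its 134 UMIs, and without that cell the level was 2013 CPM. Il13 was found in 5 cells, and Il5 and Il9 in none. Csf1, the macrophage growth factor, and Ccl6 were found in 13 cells each, at 2318 and 3067 CPM.

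Most protease UMIs of these cells came from a single cell. The deepest member of mouse 30, at 7901 UMIs, which was also the only member there with at least 2 of the neutrophil genes S100a8, S100a9, Retnlg and Csf3r, held 232 of the 236 UMIs of Prss34, 83 of the 110 of Mcpt8 and 36 of the 53 of Gata2. Without the leading cell the level of Mcpt8 was 776 CPM in place of 2576, that of Prss34 was 115 in place of 5526, and that of Gata2 was 488 in place of 1241. Among the other 14 cells Mcpt8 was found in 10 and Gata2 in 9. The 4 cells with neither protease were among the shallow ones apart from 1 of 2888 UMIs, and each held Ccl3.

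Transcripts of progenitors, dividing cells and mast cells were few or absent in the cells of mouse 30. Kit (the stem cell factor receptor of mast cells and progenitors), Cd34, Gata1, Mki67, Top2a, Mpo and Car1 had no UMI in any of the 15 cells, which allows up to 70.2 CPM each. Of the 14 genes of the progenitor and cell cycle list, 3 had a UMI, with 5 UMIs of Itga2b, 1 of Rrm2 and 1 of Tyms, and Ctsg had 3. All 12 genes of the mast cell list (Kit, Cma1, Mcpt1, Mcpt2, Mcpt4, Tpsb2, Tpsab1, Mrgprb1, Mrgprb2, Mitf, Tph1 and Adora3) were at 0, as were the 4 of the eosinophil list and the 6 of the erythroid list. Of the other lists, the 8 T cell genes summed to 140 CPM (51.6 to 306), the 8 macrophage genes to 46.8 CPM (5.67 to 169), the 8 neutrophil genes to 375 CPM (214 to 608), and the 8 B cell genes to 0. Of basophil genes that the rule did not use, Cd200r3 was found in 93.3% of the members against 0.664% of T cells of the nodule, Cyp11a1 in 80% against 0.213% and Ccl9 in 80% against 0.190%, at a median of 2473 and 1771 UMIs per cell. The basophil markers Itga2, Prss34 and Il3ra were found in 6, 3 and 2 of the 15 cells. Basophil markers were thus present in mouse 30, some of them in a minority of the cells, and the defining mast cell markers were not.

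The 203 members of mouse 32 were divided by the basophil marker Cd200r3, which the rule had not used, and then by the proteases Mcpt8 and Prss34, a division made after their values were seen. Cd200r3 was present in 23 cells (Cd200r3+ cells), a protease without Cd200r3 in 28 (protease-only cells), and neither in 152. The 23 Cd200r3+ cells had a median of 8625 UMIs, the protease-only cells 22340 and the remaining cells 25504. Of all 203 members, 49 or 24.1% (18.4 to 30.6, exact binomial) held Mcpt8 or Prss34, against 11 of 15 in mouse 30.

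The Cd200r3+ cells of mouse 32 shared the gene set of mouse 30. At least 3 of the 6 genes Cyp11a1, Hdc, Ccl3, Ccl4, Il6 and Il4 were found in 19 of 23, against 10 of 28 protease-only cells and 8 of 152 cells with neither. Hdc stood at 3101 CPM (2897 to 3314), with 0, 37 and 106 UMIs as the lowest, median and highest value per cell, and at 84.7 CPM in the cells with neither. The corresponding levels were 3151 and 1.45 CPM for Ccl3, 5133 and 24.4 CPM for Ccl4, 1129 and 7.96 CPM for Il6, 660 and 2.17 CPM for Cyp11a1 (the side-chain cleavage enzyme of steroid synthesis), and 685 and 1.69 CPM for Ccl9. Slc18a2, the transporter that loads histamine into granules, stood at 821 and 81.8 CPM. Hgf, found in 22 of the 23 cells, stood at 846 and 6.27 CPM. Il4 reached only 258 CPM (202 to 325) in the Cd200r3+ cells, near the 173 CPM of T cells in this nodule, where 38.6% of T cells held it.

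By list, with a 4-fold difference in CPM + 10 as the mark and no test, since a single nodule was measured, 10 of 12 basophil genes, 14 of 19 cytokine and chemokine genes, 5 of 11 histamine and lipid mediator genes and 6 of 15 cytokine receptor genes stood at least 4-fold higher in Cd200r3+ cells than in cells with neither. Over all 9096 genes with 10 CPM or more in either group, the 5 rule genes left out, 3.07% did so and 0.286% stood at least 4-fold lower. Of those 279 higher genes, 184 kept the mark without their leading cell. The median log2 ratio was 3.38 for the basophil list and 3.20 for the cytokines, against -0.16 over all genes. The basophil list includes Cd200r3 itself, which divided the cells, and all of these genes were read in the cells that the division used. The lists also overlap, so their counts are not separate. Ccl9 and Csf1 are counted as basophil and as cytokine genes, and Il3ra, Il18r1 and Il18rap as basophil and as cytokine receptor genes. Among receptor and signalling genes of IgE, Fcer1g stood at 588 CPM (501 to 685) in Cd200r3+ cells and at 18.6 CPM in cells with neither, and the adaptor Lat2 at 118 and 8.92 CPM. The other 12 of the 14 genes tested outside the rule, among them Lyn, Syk, Btk and Gab2, differed by less than 4-fold. Gata2 stood at 731 CPM (634 to 839) in 22 of the 23 cells and at 158 CPM in the cells with neither. Cebpa, the myeloid transcription factor, stood at 53.8 CPM in the former and at 1.21 CPM in the latter.

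**Figure D3:**
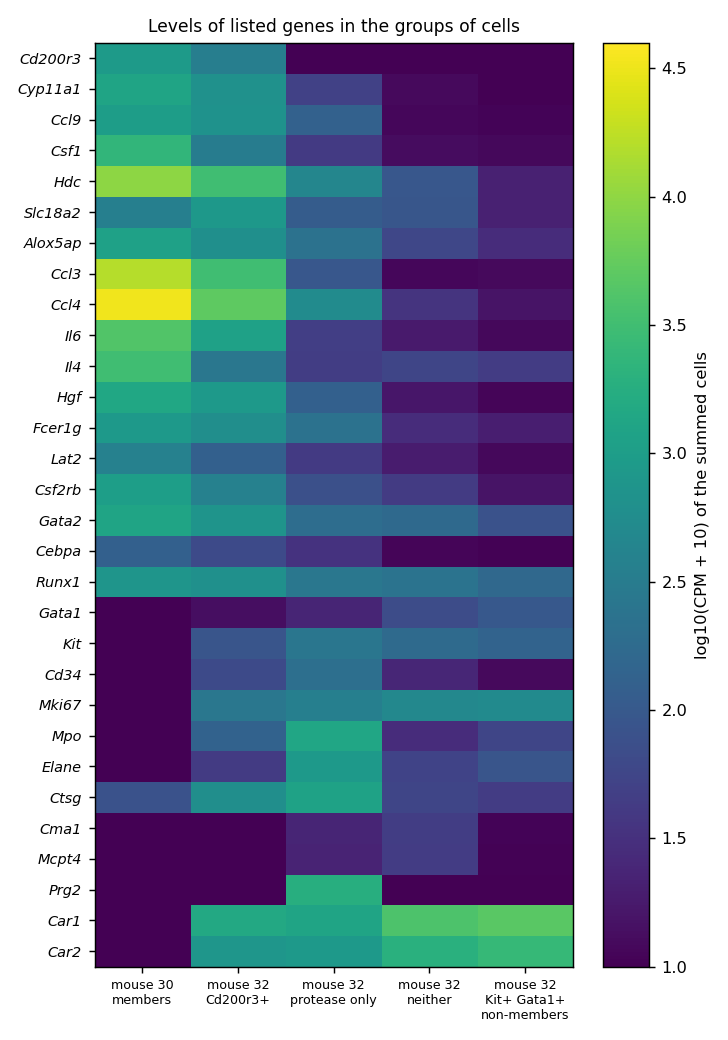
Levels of 30 listed genes as log10(CPM + 10) of UMIs summed over the 15 members of mouse 30, over the 23 Cd200r3+, 28 protease-only and 152 remaining members of mouse 32, and over 1123 cells of mouse 32 with Kit and Gata1 that were no members. Basophil, histamine and chemokine genes (upper rows) are high in the first 2 columns, Mpo, Elane and Ctsg are highest in the third, and Car1 and Car2 are highest in the last 2.

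Kit and dividing-cell transcripts were carried by a minority of the Cd200r3+ cells. Kit was found in 6 of 23, Mki67 in 5 and Mpo in 4. Of the 5 Cd200r3+ cells above 15000 UMIs, 4 held Kit and 3 held at least 10 UMIs of Car1, a carbonic anhydrase of erythroid progenitors, against 2 and 0 of the 18 shallower cells. The deepest, at 47428 UMIs, held 164 UMIs of Car1 and 33 of Mki67 together with 120 of Prss34, 74 of Mcpt8 and 112 of Ccl4. Whether these deep droplets held more than 1 cell was not tested.

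The chemokine and cytokine levels of the Cd200r3+ cells were lower in mouse 32 than in mouse 30 by the counting intervals. With the 14 Cd200r3+ cells of mouse 30 set against the 23 of mouse 32, Ccl4 stood at 34449 and 5133 CPM, Ccl3 at 16386 and 3151, Il4 at 3233 and 258, Ccl6 at 3039 and 208, Il6 at 4352 and 1129, Csf1 at 2334 and 319, and Hdc at 9992 and 3101. Il1b went the other way, at 1462 CPM in mouse 32, where 10 of the 23 cells held it, against 72.9 CPM. Slc18a2 was likewise lower in mouse 30, at 365 against 821 CPM. These are 2 nodules of different organs, liver and spleen, so the organ, the animal and the library cannot be told apart. CPM also depends on what else a cell transcribes, and Cd200r3+ cells of mouse 30 had a median of 2681 UMIs.

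Thinning did not remove the pattern. At 1000 UMIs per cell, Hdc was found in 12 of 14 members of mouse 30 (85.7% of cells, 57.2 to 98.2) and in 16 of 22 Cd200r3+ cells of mouse 32 (72.7%, 49.8 to 89.3), but in 8% (4.2 to 13.6) of the cells with neither and in 1.16% (0.618 to 1.97) of the 1123 cells with Kit and Gata1. Kit was found at that depth in 0 of 14, 2 of 22 and 21 of 150 cells, and before thinning in 0%, 27.3% and 93.3% of the same cells. The intervals of Kit overlap after thinning, so that its difference between these groups was not detectable at 1000 UMIs.

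Protease-only cells carried granule transcripts of early neutrophil and monocyte progenitors. Mpo (myeloperoxidase) was found in 19 of 28, with 0, 8 and 169 UMIs as the lowest, median and highest value, and its level was 1352 CPM (1268 to 1440) against 18.8 CPM in the cells with neither. Elane stood at 873 and 42.9 CPM, Prtn3 at 723 and 36.4 CPM, and Ctsg at 1178 and 45.8 CPM. In all filtered cells of the library that were no members, Mpo stood at 201 CPM and Ctsg at 136 CPM. Ctsg also stood at 595 CPM in the Cd200r3+ cells, in 15 of 23. At least 2 of S100a8, S100a9, Retnlg and Csf3r, or a V(D)J call, were found in 10 of the 28 cells. The same held for 2 of 23 Cd200r3+ cells and 27 of 152 cells with neither. Whether such droplets held more than 1 cell was not tested. In the cells with neither, 165 of 178 UMIs of Elane and 63 of 78 of Mpo were in single cells. Kit was found in 26 of the 28 cells and Cd34 in 20, and 18 held Kit with Mpo. Of the genes that chose them, Cpa3 had a median of 14 UMIs per cell, Mcpt8 of 1.5, and Ms4a2 and Fcer1a of 0. At least 4-fold higher than in the cells with neither stood 3 of 12 basophil genes, 5 of 19 cytokine genes and 2 of 4 eosinophil genes, against 1.16% of all 8724 genes, and 0.0344% of all genes were 4-fold lower. Ccl9 is counted here among both the basophil and the cytokine genes. Of the 101 genes behind that share, 61 kept the mark without their leading cell.

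Several levels in the protease-only cells came from 1 or 2 cells. Prg2, the eosinophil major basic protein, stood at 1824 CPM, but 1120 of its 1310 UMIs were in a cell of 27649 UMIs and the other 190 in a cell of 13361 UMIs, and these were also the 2 cells with Epx, the eosinophil peroxidase. Both held Cpa3 and Mcpt8 UMIs, and neither held Cd200r3. Ccl4 stood at 531 CPM with 254 of 381 UMIs in a single cell of 24767 UMIs. That cell also held 146 UMIs of Cpa3, 62 of Kit, 49 of Fcer1a, 33 of Mcpt8, 386 of Gzmb, 9 of Mcpt4 and 3 of Cma1. Ccl4 was 183 CPM without it, and Prg2 was 275 CPM without its leading cell.

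**Figure D4:**
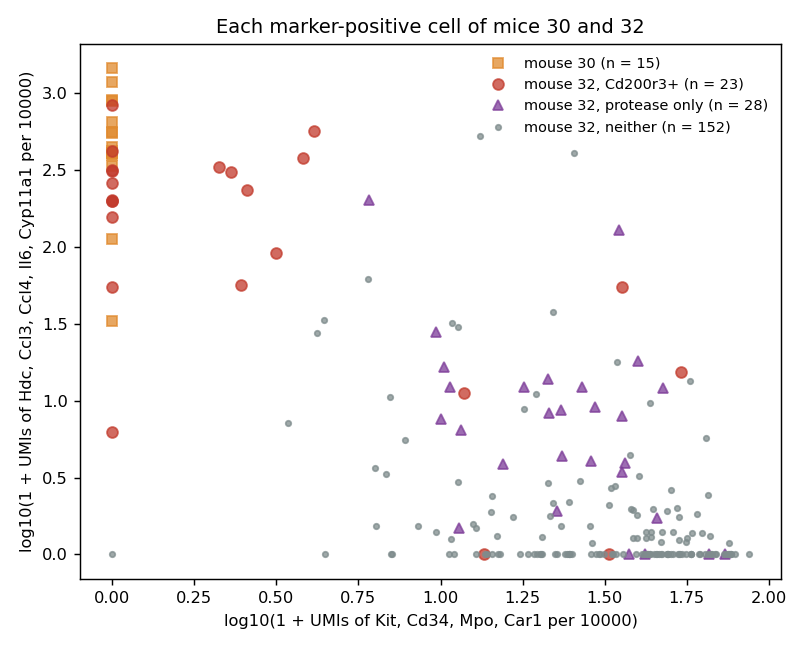
Each member of mice 30 and 32 by log10(1 + UMIs per 10000) of Kit, Cd34, Mpo and Car1 together (horizontal) and of Hdc, Ccl3, Ccl4, Il6 and Cyp11a1 together (vertical). All 15 cells of mouse 30 (squares) lie at 0 on the horizontal axis, most of the 23 Cd200r3+ cells of mouse 32 (circles) lie at the upper left, and most of the 28 protease-only cells (triangles) and 152 remaining cells (dots) lie to the right.

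The 152 cells with neither Cd200r3 nor a protease looked like the Kit+ Gata1+ cells of the same nodule. Kit was found in 140 of them, Gata2 in 137, Gata1 in 105, Car1 in 140 and Mki67 in 122. Car1 had a median of 73.5 UMIs per cell and a highest value of 442, and it stood at 3951 CPM (3891 to 4012), against 4768 CPM in 1123 cells with Kit and Gata1 that did not meet the rule and had a median of 27028 UMIs. Mki67 stood at 469 CPM (448 to 490) and at 514 CPM (506 to 522) in these 2 groups, Car2 at 1930 and 2581 CPM, and Kit at 164 and 129 CPM, where Kit chose the second group. Only 7 of 8290 genes (0.0844%) stood at least 4-fold higher in the members and 4 (0.0483%) at least 4-fold lower. The lower ones were Camp, Hbb-bs, Ngp and Pf4, genes of neutrophil, erythroid and platelet lineages. The higher ones were Gzmb, Hdc, Slc18a2, Cd74, Mcpt4, Cma1 and Vim. Gzmb, a granule protease found in mast cells as well as in T cells, stood at 252 CPM (237 to 268) in 57 of 152 cells, against 13.5 CPM, and at 165 CPM without the cell that held 366 of its 1046 UMIs. Its level was higher in the other members of the nodule, at 1979 CPM in the Cd200r3+ cells (13 of 23 held it). In the protease-only cells (6 of 28 held it) it was 1043 CPM, and 524 CPM without the leading cell. Slc18a2 stood at 81.8 CPM in 90 cells, against 11.1 CPM, and Hdc at 84.7 CPM in 50 cells, against 11.5 CPM. Ms4a2, which chose the members, had a median of 2 UMIs and a highest value of 14. Of 12 genes on the mast cell list, 2 were 4-fold higher (Cma1 and Mcpt4), and none of the 19 cytokine genes was. When the leading cell of each gene was left out, only Gzmb and Slc18a2 kept the 4-fold mark, while Cma1 stood at 17.9 and Hdc at 70.4 CPM in the members.

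The chymase Mcpt4 was concentrated in 3 shallow cells. Cells of mouse 32 with 1902, 821 and 814 UMIs held 57, 44 and 36 UMIs of Mcpt4, which is 137 of the 149 UMIs of Mcpt4 in all 220 members, together with 6, 7 and 4 of Cma1 and 8, 19 and 6 of Cpa3. They had no UMI of Mcpt8, Prss34, Ms4a2 or Mki67, and the only 3 UMIs of Tpsb2, a tryptase, were in the cell of 821 UMIs. Cma1 was more widely spread, with 153 UMIs in members of mouse 32, of which those 3 cells held 17. It was found in 26 of the 152 cells with neither Cd200r3 nor a protease and in 4 of the 28 protease-only cells, led by a cell of 9971 UMIs with 69 UMIs of Cma1, 60 of Hdc and 12 of Ms4a2 but none of Mcpt4. The tryptase gene Tpsab1 and the mast cell receptors Mrgprb1 and Mrgprb2 had no UMI in any member. In mouse 31, a BCR mouse with no member, 51 of the 52 UMIs of Mcpt4 were in 1 cell of 43378 UMIs that held none of the 5 rule genes.

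Lists of other lineages had the following levels in the members. The 8 neutrophil genes summed to 323 CPM in Cd200r3+ cells, 260 in protease-only cells and 162 in the cells with neither, against 725 CPM in the Kit+ Gata1+ cells. At least 2 of S100a8, S100a9, Retnlg and Csf3r were found in 38 of the 203 members (18.7%), in 11.6% of T cells and in 16.6% of the Kit+ Gata1+ cells. No member held 2 or more C1q genes. The 8 T cell genes summed to at most 18.6 CPM and the 8 B cell genes to at most 2.79 CPM in the 3 groups of mouse 32. The macrophage list reached 190 CPM in Cd200r3+ cells, of which 183 CPM was Apoe, found in 15 cells. The ILC2 list summed to 427 CPM (353 to 510) in Cd200r3+ cells and 110 CPM in the cells with neither, and 3 of its 5 genes (Rora, Il7r and Areg) stood at least 4-fold higher in the former. Its largest part was Il1rl1, the IL-33 receptor, which mast cells and basophils also carry, at 276 CPM in 16 of the 23 cells and 101 CPM in the cells with neither. The eosinophil list reached 1890 CPM in protease-only cells, nearly all of it the Prg2 of the pair of cells above, and the erythroid list reached 186 CPM in the cells with neither, against 804 CPM in the Kit+ Gata1+ cells. The part of free RNA in these values was not tested.

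Eif3e, the gene deleted in these mice by a Cre that is active in B cells, was transcribed in the members. It made up 5.59% (5.27 to 5.93, exact binomial) of the UMIs of the 13 eIF3 subunits in members of mouse 32. The share was 5.23% (5.11 to 5.36) in the Kit+ Gata1+ cells and 5.90% (5.72 to 6.08) in T cells. Neutrophils stood lower, at 4.94% (4.77 to 5.13), with an interval apart from that of the members. In mouse 30 the members held only 2 of 56 eIF3 UMIs as Eif3e (3.57%, 0.435 to 12.3). T cells stood at 6.52% and neutrophils at 3.87%, and a difference was not detectable at this depth. A transcript counted at Eif3e may lie outside the deleted exons.

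Members were also compared with neutrophils of the same nodule in mice 30 and 32, a pairing made at a minimum of 10 members, with genes used to choose either kind of cell left out. In edgeR's quasi-likelihood test with the mouse as a block, 25 of 6806 genes (0.367%) were higher in members and 92 (1.35%) lower at a Benjamini-Hochberg adjusted p under 0.05. Of the listed genes tested, 5 of 15 cytokine and chemokine genes, 1 of 8 basophil genes (Ccl9, which is on both lists), 1 of 6 histamine and lipid genes (Hdc) and 1 of 10 transcription factors (Gata2) were higher. None of 11 IgE receptor and signalling genes, 2 mast cell genes or 11 progenitor and cell cycle genes was called. Lower were 1 of 9 cytokine receptor genes (Csf2ra) and 3 of 3 neutrophil genes. The comparator was chosen by other neutrophil genes, so those 3 are no independent result. Il6 was higher by 6.85 on the log2 scale (edgeR adjusted p = 3.69e-11), at 4215 against 5.78 CPM in mouse 30 and 72.7 against 2.79 CPM in mouse 32. Hdc was higher by 2.64 (edgeR adjusted p = 0.0347) and Gata2 by 5.57 (edgeR adjusted p = 7.76e-07). Ccl3, at 15805 against 502 CPM in mouse 30 and 184 against 153 CPM in mouse 32, did not pass (edgeR adjusted p = 0.193). These 2 pairs leave 1 residual degree of freedom, and without the block no gene passed, with 262 at an unadjusted p under 0.05. Neutrophils in mouse 32 were chosen by 2 of 4 genes and had a median of 8934 UMIs, and the members of the nodules differ in kind, as described above.

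Expression tests between the BCR and TCR mice could not be made, since no BCR mouse held over 1 member. The same holds for paired tests against macrophages, of which mouse 32 held 18 and mouse 30 held 2. The label of mast cells and basophils was carried mainly by the 15 cells of mouse 30 and the 23 Cd200r3+ cells of mouse 32. Some of the latter held Kit or Car1. It was also carried by the 3 cells rich in Mcpt4. These groups are not a full list. Cma1 was found in 26 cells with neither Cd200r3 nor a protease, those 3 among them, and in 4 protease-only cells. At least 3 of Cyp11a1, Hdc, Ccl3, Ccl4, Il6 and Il4 were found in 10 protease-only cells and 8 cells with neither. The lone members in BCR mice held chemokine transcripts as well. Most members of mouse 32 were Kit+ cells with low counts of the 5 genes.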

How the data were processed

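Single-cell RNA libraries of 7 nodules were analysed. The deposited values are UMI counts per gene and cell; the submitters' processing notes name GRCm38 (mm10), other steps are not given in the sources used here, and every deposited cell had at least 500 UMIs. The study's methods name a 5′ kit for V(D)J libraries and a 3′ kit for scRNA-seq, and which applies to the RNA libraries used here is unsettled. V(D)J libraries were used only as a call per barcode. Members and gene lists were chosen with earlier results of these data known.

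Cells over 10% mitochondrial UMIs were left out, and no doublet caller was run. T cells were cells with at least 2 of Cd3d, Cd3e and Cd3g and no B cell transcript. Comparators of neutrophils and macrophages needed 2 of their genes. Counts were summed per group and given as CPM with exact Poisson intervals, shares with Clopper-Pearson intervals (95%), and a count of 0 allows 3 counts. Fold marks used CPM + 10, for genes of 10 CPM or more in either group. Shares per nodule were tested by exact permutation over mice, with 1 nodule per mouse as the replicate. The tests of expression planned with edgeR needed 20 members (or 10 per side) in at least 2 nodules and could not be made. With 10 members, mice 30 and 32 allowed a paired test of members against neutrophils of the same mouse (edgeR 4.0.16, TMM, mouse as block, genes with 20 UMIs in 3 of 4 sums, a filter chosen on simulated data; DESeq2 1.42.0 as an alternative). Named genes came from the lists, from the rule of 4-fold difference, and from single cells singled out after their values were seen. Similar genes of the Mcpt family can share reads, and how they were split is not given in the sources used here. Python 3.11.15, numpy 2.4.6, pandas 2.3.3 and scipy 1.17.1 were used. The alternatives tried are given in the closing section.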

Additional observations from a re-analysis of the deposited data

Results flagged for a closer look

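Mcpt8 was also counted outside the members, in T cells, which served above as a comparator for other genes. T cells of mouse 30 held 469 UMIs of Mcpt8 in 110 of 4220 cells (2.61%, exact binomial interval 2.15 to 3.13), against 110 UMIs in the 15 members. T cells with a V(D)J call held 392 of these UMIs, in 3.92% of 1887 cells. Neutrophils of the nodule held 4 UMIs, in 0.551% (0.15 to 1.4) of 726 cells, at a median of 1491 UMIs per cell against 1771 for the T cells. Of the 110 T cells, 60 held 2 or more UMIs of Mcpt8 and the highest held 55, and Prss34 gave 8 UMIs in T cells of this nodule. Prss34 in T cells of mouse 32 likewise stood outside the comparisons, at 388 UMIs, of which 304 were in 1 cell, among 8 positive cells of 5007. Why these T cells held the proteases was not tested.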

How the results depend on the processing

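The share of members was higher in the TCR than in the BCR mice under all alternatives run, and p stayed at 0.0952 with the full set of mice; the difference was 0.232 percentage points with at least 3 of 5 genes, 0.817 with a mitochondrial limit of 20%, 0.16 after thinning to 1000 UMIs and 0.677 without mixed cells (a V(D)J call, 2 C1q genes or 2 neutrophil genes). Leaving out 1 mouse at a time gave 0.14 to 1.51 percentage points, with p of 0.133 to 0.333, and 17 to 220 members. The number of members fell from 220 to 61 with at least 3 of 5 genes and to 37 after thinning. The share of members of mouse 32 with Mcpt8 or Prss34 was 24.1%, 16.7% when 2 UMIs were needed and 71.4% (20 of 28 cells) among members found after thinning. Kit was found in 91.2% in place of 92.1% of the cells with neither Cd200r3 nor a protease, and in 15% in place of 26.1% of the Cd200r3+ cells, when cells of 20000 UMIs or more were left out, an alternative added after seeing the data. The paired comparison of members with neutrophils, made at a minimum of 10 members after the data were seen, called 117 genes with the replicate block and 0 without it (262 at an unadjusted p under 0.05). With the block it called 419 with filterByExpr alone, a filter that gave false calls on simulated data, 740 with all genes that had a UMI, 74 without mixed cells and 364 with DESeq2. Leaving out a mouse leaves no residual degree of freedom, and with at least 3 of 5 genes mouse 30 had 9 members, so neither was run. Tests between BCR and TCR mice, against macrophages and between protease-positive and negative members could not be made at any listed minimum, nor could their alternatives. Depth limits the absence of genes in mouse 30, where a count of 0 over 15 cells allows 70.2 CPM.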
